A study of Homo sapiens with 2 samples.

Results

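Small nuclear and structural RNA genes encode short, untranslated transcripts that work as RNA: the U RNAs of the spliceosome and of histone mRNA processing, 7SK, 7SL, and the RNA parts of RNase MRP and RNase P. The 54 genes described here are 28 listed genes of these classes together with every annotated gene whose name starts with RNVU1- (27 genes, of which RNVU1-15 is also in the list), out of 62700 annotated genes (GENCODE release 44, hg38). By textbook assignment, 43 of them are transcribed by RNA polymerase II (Pol II) and 11 by RNA polymerase III (Pol III). A gene was said to have a peak where a peak interval lay within 1 kb of its annotated start.

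The peaks come from CUT&Tag, in which an antibody on chromatin brings in the Tn5 transposase, and DNA fragments are released and sequenced around the bound site. The antibody was directed at the G-quadruplex (G4), in which guanine-rich DNA folds into stacked guanine tetrads. HEK293T, a line derived from human embryonic kidney, was used throughout. The library of wild-type cells (WT) was set beside that of cells mutated in DNMT1, the enzyme that copies DNA methylation to the new strand at replication (DNMT1-KO, 1 library each; labelled as DNMT1_MUT by genotype). Per the study, the mutant cells were the DNMT1-KO-2 line, with an insertion in both DNMT1 alleles that lengthens the protein in frame. The study reports that DNMT1 mRNA, DNMT1 protein and overall methylation were lower in this line than in wild type. The line is 1 clone isolated after CRISPR/Cas9 editing of HEK293T cells. Any difference between the lists is thus also one between a clone and its parent population. The sample titles name the antibody BG4, whereas all 515 WT and all 92 DNMT1-KO peak names carry the token 1H6 and 0 carry BG4, and which antibody gave these lists was not settled. The design text of the series speaks of ATAC, an assay of open chromatin, whereas its title and the study's methods give CUT&Tag, which is taken as the assay here.

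Most snRNA genes use Pol II, but their promoters differ from those of protein-coding genes. A distal element, often an octamer bound by the factor Oct-1, and a proximal element that recruits the SNAPc complex drive them, and the Integrator complex cleaves the nascent transcript past the end of the gene. U6, U6atac, 7SK, RNase MRP RNA and RNase P RNA genes use much the same upstream elements with Pol III, while 7SL genes also use elements inside the gene. The RNVU1- genes are variant copies of U1, most of them in duplicated sequence of chromosome 1.

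In the WT list, 11 of the 54 genes had a peak (20.4%, exact interval 10.6 to 33.5%), beside 1.17% of all annotated genes (736 of 62700) and 2.53% of protein-coding genes (507 of 20046). They were the U5 genes RNU5A-1, RNU5B-1, RNU5D-1 and RNU5F-1, the U7 gene RNU7-1, the minor-spliceosome genes RNU11 and RNU4ATAC, RMRP, RPPH1, RNVU1-15 and RNVU1-6, each with a peak of its own. In the DNMT1-KO list 1 of the 54 genes had a peak (1.85%, interval 0.0469 to 9.89%), beside 0.225% of all annotated genes (141 of 62700). That gene was RNU5B-1, which was also in the WT list. These deposited lists are much shorter than the peak sets that the study describes for the same lines, which limits what a missing peak in either list shows, and the reason was not settled. Intervals on shares are 95% intervals by the exact Clopper-Pearson method and hold counting error alone. They do not cover the choice of the genes, and of the protein lists below, which was made with earlier results of these data known. With 1 peak list per genotype there is no replicate error, and no test was made between genotypes or between classes of genes.

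**Figure D1:**
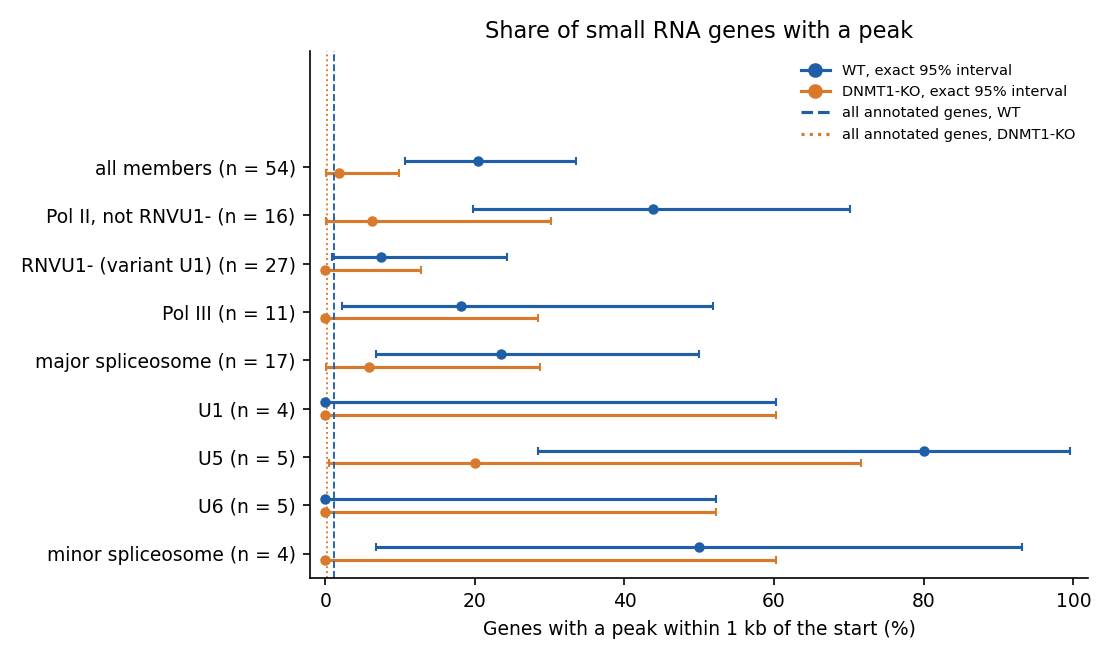
Share of small RNA genes with a peak within 1 kb of the start (x axis, percent) for groups of genes (y axis), in WT (blue) and DNMT1-KO (orange); bars are exact 95% intervals and the vertical lines are the shares over all annotated genes. In WT the U5 genes had the highest share of the groups plotted (4 of 5), and U1 and U6 had 0.

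The G4 motifs found inside the peaks are shown first, because they are the sequences in these peaks that could fold, by the canonical rule, into the structure the antibody was meant for. As a motif able to form a G4 (potential quadruplex sequence, PQS), 4 runs of 3 or more G with 1 to 12 bases between them were searched on both strands. Only 4 of the 11 WT peaks held one (36.4%, interval 10.9 to 69.2%), with 2 in the peak at RNU7-1 and 1 each at RNU4ATAC, RMRP and RNVU1-6. They are written 5′ to 3′ on the strand that carries the guanines, with runs of 3 or more G in capitals.
RNU7-1, chr12:6944228-6944268, plus strand: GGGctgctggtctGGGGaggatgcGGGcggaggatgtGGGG
RNU7-1, chr12:6944292-6944317, plus strand: GGGaaaatGGGGtaGGGGacgccGGG
RNU4ATAC, chr2:121530615-121530637, minus strand: GGGGcGGGGctggcGGGGGcGGG
RMRP, chr9:35658349-35658368, minus strand: GGGtggaGGGatcGGGcGGG
RNVU1-6, chr1:146052311-146052349, minus strand: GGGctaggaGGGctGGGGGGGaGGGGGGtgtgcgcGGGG

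These motifs were 20 to 41 bases long. At RMRP the motif lay 12 bp from the summit, the position of most fragments, and at RNU4ATAC 28 bp from it. At RNVU1-6 it lay 74 bp from the summit. At RNU7-1 the centres of the motifs were 252 and 196 bp before the summit. The motif lay on the same strand as the gene at RNU7-1, RMRP and RNVU1-6, and on the opposite strand at RNU4ATAC. Each held 2 or 3 CpG sites, the dinucleotide that DNMT1 methylates.

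No PQS was found in the other 7 WT peaks, which include all 4 peaks at U5 genes and those at RNU11, RPPH1 and RNVU1-15, or in the DNMT1-KO peak at RNU5B-1. Among the 494 WT peaks of chromosomes 1 to 22, X and Y that lay at none of these genes, 59.9% held a PQS (interval 55.4 to 64.3%), and among the 374 of them at protein-coding starts 61.0% did. The intervals of the small RNA gene peaks and of the other peaks overlap. The median GC content was 50.3% in the 11 peaks (range 35.6 to 62.2%), beside 61.9% in the 494. With the looser definition of runs of at least 2 G and loops of 1 to 7 bases, 10 of the 11 peaks and 95.7% of the 494 held a motif, so that definition separates few sequences.

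U5 RNA aligns the exons to be joined at the centre of the spliceosome, and 4 of its 5 genes had a WT peak. On chromosome 15, 27 fragments covered the summit at RNU5A-1 (exact Poisson interval 17.8 to 39.3) against an expected background of 4.15, and 26 covered it at RNU5B-1 (17.0 to 38.1) against 3.95. On chromosome 1, RNU5D-1 had 30 fragments (20.2 to 42.8) over a background of 4.81 and RNU5F-1 had 22 (13.8 to 33.3) over 3.95. The intervals of all 4 overlap, so their depths cannot be ranked. These were modest peaks of their list, with fold enrichments over background of 5.44, 5.45, 5.34 and 4.64 and ranks of 432, 428, 446 and 495 among 515. RNU5E-1, the remaining U5 gene, had its nearest WT peak 3616418 bp away.

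Their positions differed. The summit lay 432 bp past the start at RNU5A-1, 469 bp past it at RNU5B-1 and 418 bp past it at RNU5F-1, and these intervals began beyond the end of genes that are 116 or 117 bp long. At RNU5D-1 the summit lay 25 bp before the start, within the promoter. The summit of RNU5A-1 (chr15:65296341-65296683) was in an intron of PARP16 and that of RNU5F-1 (chr1:44721171-44721625) in an intron of ARMH1, while those of RNU5B-1 (chr15:65304998-65305339) and RNU5D-1 (chr1:44730997-44731401) were in no annotated gene. None of these 4 genes has a protein-coding start within 1 kb. The peak intervals of RNU5A-1 and RNU5B-1 match over 43 bases (81.4% identity). Each also matches part of the peak interval at RPPH1, RNU5A-1 over 53 bases (92.5% identity) and RNU5B-1 over 112 bases (76.8% identity).

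RNU5B-1 was the one gene with a peak in both lists. The DNMT1-KO library had 27 fragments at its summit (17.8 to 39.3) over a background of 3.48, and the WT library 26 over 3.95. These are raw counts. Because the total depth of each library is unknown, they do not show whether the signal was alike in the genotypes. The DNMT1-KO interval (chr15:65304894-65305260) overlapped the WT interval over 263 bp, and the summits were 124 bp apart, that of DNMT1-KO at 345 bp past the start. Within its own list the peak ranked 73 of 92 by fold enrichment (6.25). It was not set apart by depth in WT, where 6 of the 10 other peaks had at least as many fragments and yet no counterpart in the DNMT1-KO list. Overlap with a DNMT1-KO peak was found for 1 of 11 peaks here (9.09%, interval 0.23 to 41.3%) and for 10.7% of the 494 other WT peaks.

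**Figure D2:**
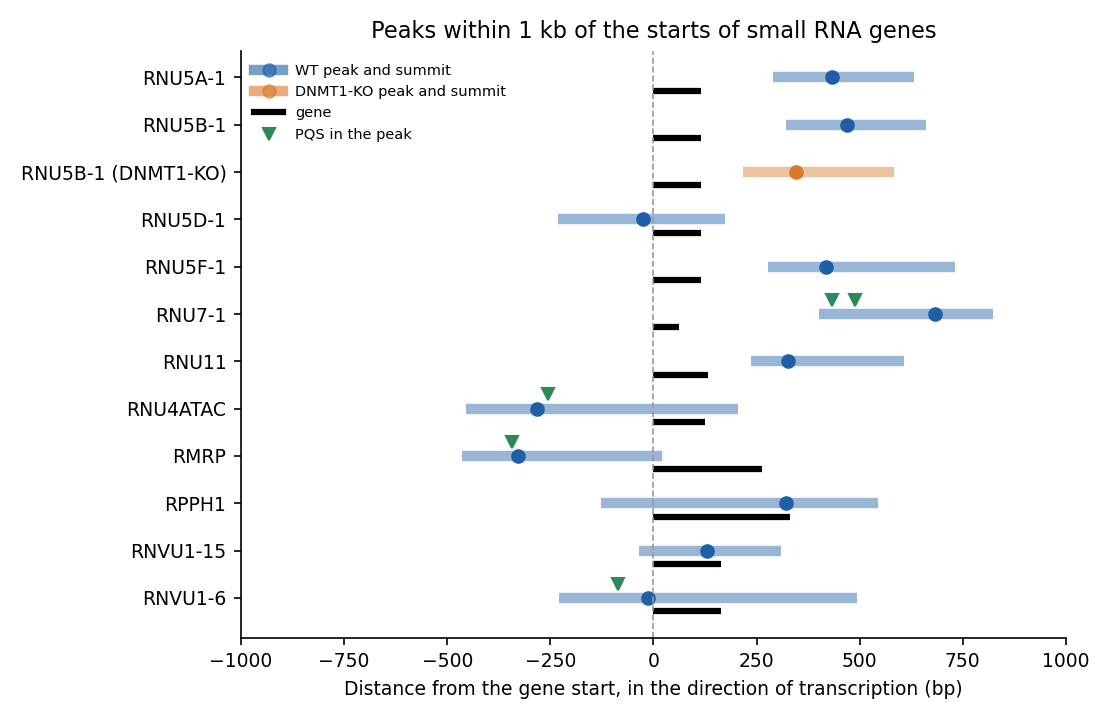
Peak intervals (bars) and summits (circles) against the gene start (x axis, bp in the direction of transcription) at each gene with a peak; black bars are the genes and triangles the centres of PQSs inside the peak. The intervals at RNU5A-1, RNU5B-1, RNU5F-1, RNU7-1 and RNU11 lie wholly past the end of the gene, and 4 of the 11 WT peaks carry a triangle.

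RNU7-1 encodes U7, which guides cleavage of histone mRNA ends, and had the most fragments of the 11 peaks, 37 (26.1 to 51.0) over a background of 5.63. Its fold enrichment was 5.73, and its summit lay 684 bp past the start (chr12:6944217-6944639) in exons of C12orf57 and of a lncRNA gene. RNU7-1 lies inside C12orf57, of which 1 transcript is annotated to start 1 bp from the RNU7-1 start and another 378 bp from the summit. Signal of the small RNA gene and of its host cannot be told apart here.

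The minor spliceosome removes a rare class of introns. U11 recognises their 5′ splice site, and U4atac pairs with U6atac before the reaction. RNU11 had 34 fragments (23.5 to 47.5) over 4.68 and a fold enrichment of 6.16, with its summit 326 bp past the start (chr1:28648837-28649208), outside annotated genes. The protein-coding gene TAF12 starts on the opposite strand 309 bp from the RNU11 start, and its nearest start was 635 bp from the summit. RNU4ATAC had 27 fragments (17.8 to 39.3) over 3.42 and a fold enrichment of 6.33, with its summit 283 bp before the start (chr2:121530427-121531086) in exons of CLASP1 and CLASP1-AS1, and 147 bp from a start of a CLASP1 transcript. The other minor-spliceosome genes, RNU12 and RNU6ATAC, had no peak in either list.

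RMRP and RPPH1, the RNA parts of RNase MRP and RNase P, which process ribosomal RNA and transfer RNA precursors, were the Pol III genes with a WT peak (2 of 11, 18.2%, interval 2.28 to 51.8%). RMRP had 23 fragments (14.6 to 34.5) over 3.49 and a fold enrichment of 5.35. Its summit lay 329 bp before the start (chr9:35657996-35658482), in an exon of CCDC107 and 29 bp from a start of that gene. RPPH1 had 28 fragments (18.6 to 40.5) over 3.28 and a fold enrichment of 6.78. Its summit lay 321 bp past the start (chr14:20342863-20343533), in exons of RPPH1 and of a lncRNA gene, and 529 bp from a start of PARP2. Both genes stand head to head with a protein-coding gene on the opposite strand, whose start was 273 bp away for RMRP (CCDC107) and 208 bp away for RPPH1 (PARP2). An opposite-strand protein-coding start also lay within 1 kb of 3 Pol III genes with no peak, 343 bp away at RNU6-2 (TMEM259), 266 bp at RNU6-9 (MED16) and 317 bp at RN7SK (GSTA4).

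The other Pol III genes had no peak in either list. These were the U6 genes RNU6-1, RNU6-2, RNU6-7, RNU6-8 and RNU6-9, which encode the catalytic RNA of the spliceosome, RNU6ATAC, RN7SK, whose RNA holds the elongation factor P-TEFb inactive, and RN7SL1 and RN7SL2, which encode the scaffold of the signal recognition particle. Of the 5 Pol III genes with a protein-coding start within 1 kb, 2 had a WT peak (40%, interval 5.27 to 85.3%), and of the 6 with none 0 did (interval 0 to 45.9%). With so few genes the intervals overlap, so no difference was shown. Over all 54 genes, 4 of the 9 with a protein-coding start within 1 kb had a WT peak (44.4%, interval 13.7 to 78.8%) and 7 of the other 45 did (15.6%, interval 6.49 to 29.5%). Counting the start of any transcript of a protein-coding gene, a rule chosen after seeing the data, gave 5 of 11 and 6 of 43. Whether the neighbouring promoter or the small RNA gene gave the signal was not tested.

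**Figure D3:**
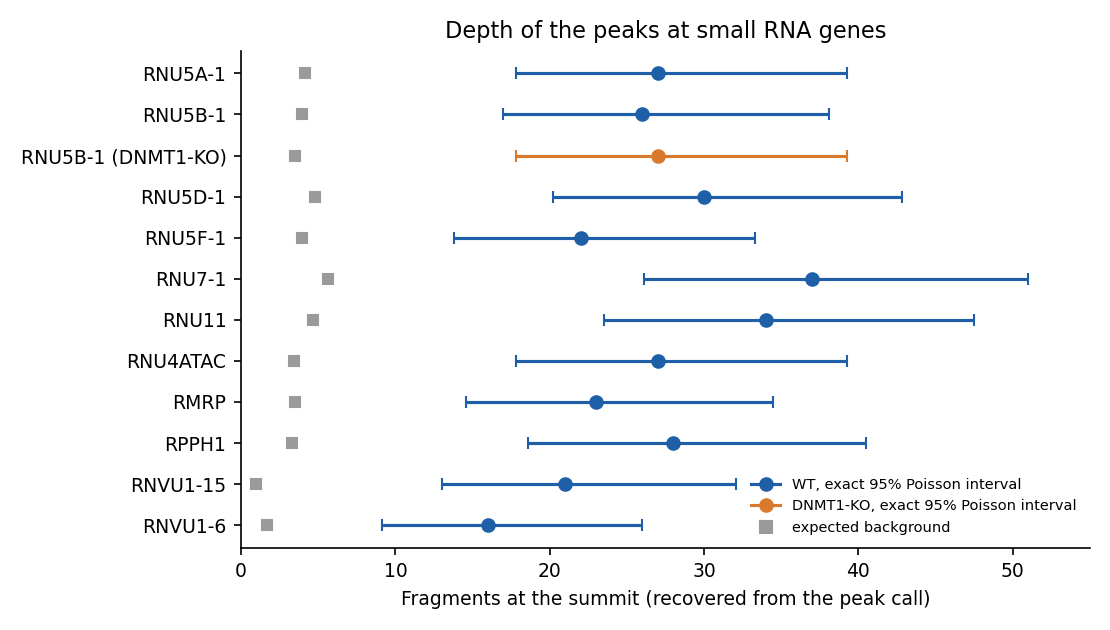
Fragments at the summit of each peak (x axis), with exact 95% Poisson intervals, for WT (blue) and DNMT1-KO (orange), and the background expected there (grey squares). WT summits held 16 to 37 fragments, and RNVU1-15 and RNVU1-6 had the lowest backgrounds.

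U1 RNA recognises the 5′ splice site. None of its 4 listed genes (RNU1-1, RNU1-2, RNU1-3 and RNU1-4) had a peak, nor did RNU2-1 for U2, RNU4-1 and RNU4-2 for U4 or RNU12 for U12. Of the 27 variant U1 genes, 2 had a WT peak (7.41%, interval 0.91 to 24.3%) and 0 had a DNMT1-KO peak (interval 0 to 12.8%). RNVU1-15 had 21 fragments (13 to 32.1) with its summit 131 bp past the start, inside the gene (chr1:144412540-144412885). Its fold enrichment of 11.2 ranked 14 of 515, although its depth was below the median of the 11 peaks. It had the lowest background of them, 0.968 fragments, so the high fold rests on the background and not on more fragments. RNVU1-6 had 16 fragments (9.15 to 26.0) over a background of 1.68, a fold enrichment of 6.35 and a summit 12 bp before the start (chr1:146051750-146052473). A transcript of another annotated gene, which overlaps RNVU1-6, also starts 12 bp from that summit. The sequences of the RNVU1-15 and RNVU1-6 peaks were 82.7% identical over 202 bases.

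Near-identical copies bear on these counts, since reads from them may match several places and how such reads were treated is not stated. A near-identical copy was a match of at least 95% identity over at least 250 bases of the 300-base promoter elsewhere in hg38. Of the 16 genes with such a copy, 1 had a WT peak (6.25%, interval 0.158 to 30.2%). Of the 38 without, 10 did (26.3%, interval 13.4 to 43.1%). The U1 promoters had 4 copies each, RNU2-1 had 12, and RNVU1-15, the gene with both a peak and copies, had 2. Among the 27 genes other than the RNVU1- genes, 9 of the 22 without a copy and 0 of the 5 with one had a WT peak. For the 15 genes with a copy and no peak, an absent signal and reads that could not be placed cannot be told apart.

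By polymerase, 9 of 43 Pol II genes (20.9%, interval 10 to 36.0%) and 2 of 11 Pol III genes (18.2%, interval 2.28 to 51.8%) had a WT peak, and the first interval lies within the second. The Pol II share depended on the variant U1 genes. Without them it was 7 of 16 (43.8%, interval 19.8 to 70.1%). The annotated pseudogene copies of the same families, which share RNA sequence with the listed genes but mostly lack their promoters, had 0 WT peaks among 2751 (interval 0 to 0.134%). That count includes 1271 copies of U6, 677 of 7SL and 293 of 7SK. One of the 2751, RN7SKP114, had a DNMT1-KO peak within 1 kb, whose summit was 574 bp before its start and 4 bp from a start of UBAP2. All genes of the snRNA biotype outside the 54 had 0 peaks among 1851 in either list, of which 1777 are among those pseudogene copies and 74 are not.

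Depth limits what an absent peak shows. The shallowest peak had 10 fragments among the WT peaks and 11 among those of DNMT1-KO, and a call also depends on the local background, so deeper sites may lack a peak as well. No detection limit was measured. The 11 peaks had a median of 27 fragments, beside 26 for the 494 other WT peaks, and a median fold enrichment of 5.73, beside 6.52. Their median percentile of fold enrichment in the WT list was 23.4 (range 3.98 to 97.4), and RPPH1 and RNVU1-15 were the ones at or above the list's median. The limit of 1 kb was not a close one. The peaks farthest from a start were those of RNU7-1 (401 bp) and RNU5B-1 (321 bp), and the nearest peaks of genes counted as having none were 23268 bp away for RNU6-2 and 30778 bp away for RNU6-9.

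To compare genes with and without a peak by sequence, G4 motifs and GC content were measured within 1 kb to each side of the start. A PQS was present at 7 of the 11 genes with a WT peak (63.6%, interval 30.8 to 89.1%) and at 34 of the 43 without (79.1%, interval 64.0 to 90%). These intervals overlap, so no order between them was shown. Over all annotated genes a PQS was present at 88.2% of the 736 with a WT peak and 54.8% of the 61964 without. The U5 genes with a peak held a PQS at 1 of 4, and their GC content was 42.9 to 46.1%. All 5 U6 genes and all 4 U1 genes, none of which had a peak, held a PQS in this window.

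GC content within 1 kb had a median of 49.1% (range 42.9 to 57.5%) at the genes with a peak and 49.7% (42.6 to 59.7%) at those without. The ranges overlap. Over all annotated genes the medians were 56.6% with a WT peak and 47.4% without. The number of CpG sites gave the same picture, with medians of 78 and 77 here against 113.5 and 32 over all genes. In the 300-base promoter the genes without a peak were richer, with a median GC content of 58.3% against 43.0% and a PQS at 20 of 43 (46.5%, interval 31.2 to 62.3%) against 2 of 11 (18.2%, interval 2.28 to 51.8%), shares whose intervals overlap. The PQS contrast went with the variant and listed U1 genes, whose promoters held a PQS in 17 of 27 and 4 of 4. Within the variant U1 genes a PQS was at 15 of 25 without a peak and at 2 of 2 with one. Among the genes other than RNVU1- it was at 5 of 18 without a peak (interval 9.69 to 53.5%), 4 of them the listed U1 genes, and at 0 of 9 with one (interval 0 to 33.6%). The median promoter GC content of these genes was 51.3% without a peak and 41.3% with one.

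**Figure D4:**
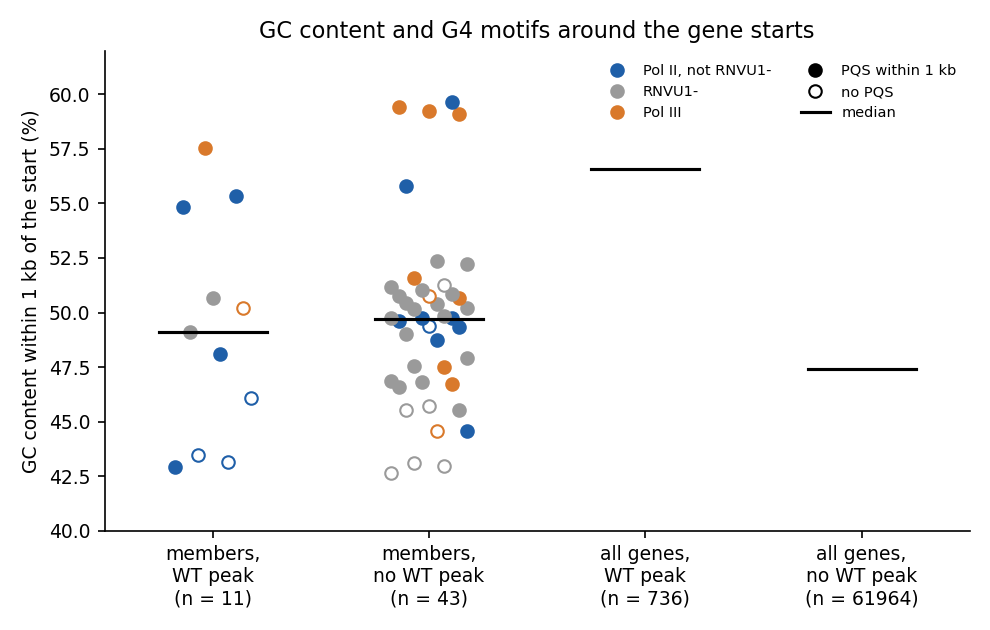
GC content within 1 kb of the start (y axis, percent; the axis begins at 40) of each small RNA gene with and without a WT peak, colored by class, filled where a PQS was present; black lines are medians, also for all annotated genes. The medians of the small RNA genes with and without a peak, 49.1 and 49.7%, lie between those of all genes.

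Promoter motifs were then counted in the same 300 bases. The octamer, searched as ATGCAAAT on both strands and so read as ATTTGCAT where it lies on the other strand, was present in 8 of the 11 promoters of genes with a WT peak and in 7 of the 43 others, beside 2.28% of all annotated promoters of that length and 2.31% of those with a WT peak. None of the 27 variant U1 promoters held it. Among the other genes it was 8 of 9 with a peak (88.9%, RNU5D-1 being the exception) and 7 of 18 without (38.9%). No interval was computed for these shares, so no order between them was shown. Read the other way, 8 of 15 genes with an octamer had a WT peak (53.3%, interval 26.6 to 78.7%) and 3 of 39 without it did (7.69%, interval 1.62 to 20.9%). Those 39 include all 27 variant U1 genes, of which 2 had a peak, and no interval was computed without them. The genes with an octamer and no peak were RNU2-1, RNU4-2, RNU5E-1, RNU6-1, RNU6-7, RNU6-8 and RNU6-9. For genes with a peak, 7 of the 8 octamers are printed on the strand of the gene with 12 bases to each side, and capitals mark the octamer.
RNU5A-1: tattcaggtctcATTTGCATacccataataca
RNU5F-1: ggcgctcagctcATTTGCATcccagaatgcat
RNU7-1: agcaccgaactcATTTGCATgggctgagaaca
RNU11: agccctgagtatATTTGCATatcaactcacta
RNU4ATAC: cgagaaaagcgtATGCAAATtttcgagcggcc
RMRP: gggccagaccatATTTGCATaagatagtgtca
RPPH1: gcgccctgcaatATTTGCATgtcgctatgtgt

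In 7 of the 8 the octamer began between 229 and 203 bases before the start, and in RPPH1 it began 101 bases before it. It read ATTTGCAT along the gene in all but RNU4ATAC. A match is a description and not a bound site. Of these 8 genes only RNU4ATAC had its summit (283 bp before the start) within 100 bp of its octamer (229 bp before it). The GC box, searched as GGGCGG on both strands, was in 5 of 11 promoters with a peak and 22 of 43 without, beside 27.3% of all annotated promoters and 61.5% of those with a WT peak, and most of its matches were in RNVU1- promoters (21 of 27).

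**Figure D5:**
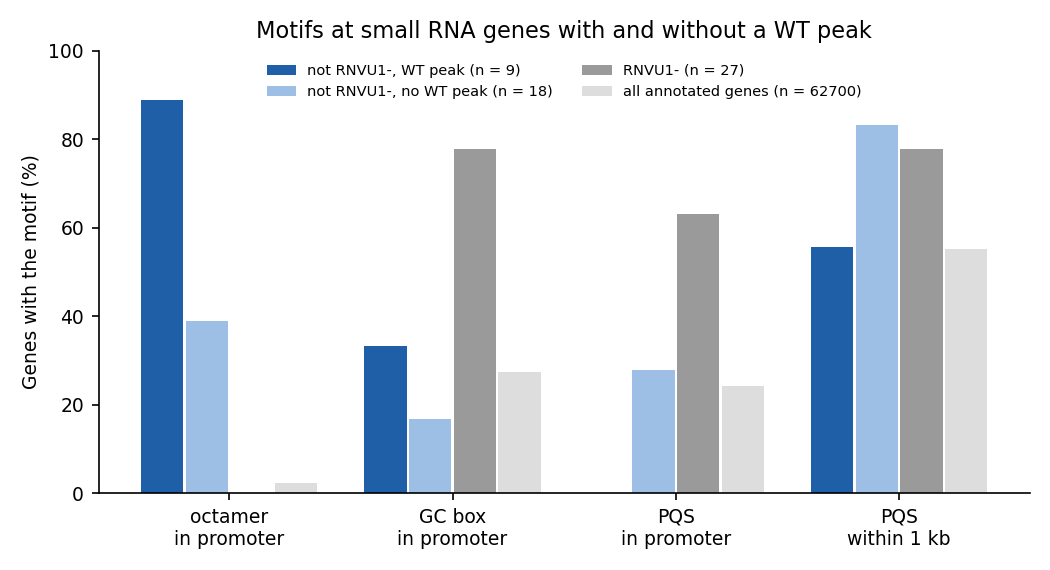
Share of genes (y axis, percent) whose promoter holds an octamer, a GC box or a PQS, or that hold a PQS within 1 kb, for genes other than RNVU1- with and without a WT peak, for RNVU1- genes and for all annotated genes; no error bars are drawn. The octamer was in 88.9% of the first group and 38.9% of the second, shares for which no interval was computed. A PQS within 1 kb was at 55.6% (exact 95% interval 21.2 to 86.3%) and 83.3% (58.6 to 96.4%), with overlapping intervals.

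Over the 11 WT peaks, 4 summits lay before the start, 2 inside the gene and 5 past its end, and 6 intervals held the start itself. The median summit was 321 bp past the start. At the 507 protein-coding genes with a WT peak, by the summit nearest each start, it was 58 bp past the start. Of their summits, 23.1% were 300 bp or more past it, against 6 of 11 (54.5%) here, a share with no computed interval. Small RNA genes are short, so a summit at such a distance is past the end of most of them.

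Genes for the proteins that make and work with these RNAs were looked up in the same way. Of 113 such protein-coding genes, 9 had a WT peak (7.96%, interval 3.71 to 14.6%), beside 2.53% of all protein-coding genes, and 0 had a DNMT1-KO peak, beside 0.264%. Among 15 genes of snRNA gene transcription these were POU2F1, which encodes the octamer-binding factor Oct-1 (25 fragments), and SP1, which encodes a GC box-binding factor (31 fragments). Among 14 Integrator genes they were INTS7 and INTS13, with 26 fragments each. The Sm and LSm proteins, which form the ring on snRNAs, had 1 of 16 (SNRPD2, 22 fragments). The snRNP-specific proteins had 2 of 26, with 35 fragments at SF3B3, of the U2 particle, and 20 at PRPF31, of the U4/U6.U5 particle. The assembly factors had 1 of 19 (WDR77, a partner of the methyltransferase that modifies Sm proteins, 25 fragments), and the signal recognition particle had 1 of 6 (SRP9, 22 fragments). The 7SK complex (0 of 7), the RNase MRP and RNase P proteins (0 of 10) and 20 other small RNA genes had none. Fold enrichments of the 9 were between 4.88 and 8.01, and 5 of the 9 peaks held a PQS.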

How the data were processed

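One peak list of G4 CUT&Tag per genotype (WT and DNMT1-KO HEK293T cells) was used, grouped by the genotype labels. The study repeated the assay on separate batches of cells. Per the methods of the study, the authors aligned reads to hg38 with Bowtie2, removed duplicates and blacklisted regions, and called peaks with MACS2. The submitters' processing notes name Bowtie2 2.4.5 and MACS2 2.2.7.1, and the methods name another MACS2 version. The study states that it merged replicates for its signal analyses and used IgG as background for signals. Whether either holds for these lists, and how reads with several matches were treated, is not given in the sources used here. The deposited fold enrichment, a ratio that the authors obtained with MACS2 in each library separately, sets the summit against its local background. The same call gave the deposited −log10 values of p and q, and the deposited score is a truncated multiple of the latter and was not used.

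Fragments at a summit and their expected background were recovered from the fold enrichment and the −log10 p-value (pseudocount 1). In 99.6% of WT and 100.0% of DNMT1-KO peaks with a −log10 p-value of at most 250 they were whole within 0.02, and the recovery was tested on simulated data. Whether they are read pairs or extended reads is not stated. Total depth per library is unknown. Shares have exact Clopper-Pearson and fragments exact Poisson 95% intervals (scipy 1.17.1), for counting error only. Sequence came from hg38, and copies were searched with blastn 2.17.0. Promoters were 250 bases before the start and 50 from it on. No test was made.

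The genes and lists were chosen with earlier results of these data known. Every listed gene with a peak was named with its values, the others by class, and every pathway gene with a peak. Sequences were to be printed for at most 8 genes with the most fragments. The RNVU1-6 motif and the RNU5F-1 octamer were added after values were seen. The RNU5B-1 octamer and some promoter and peak sequences are not reported here.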

Additional observations from a re-analysis of the deposited data

How the results depend on the processing

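Across the alternatives, 41 values were recomputed, of which 27 stayed within 1.5 times a count, the interval of a share or 1 SD of a median, and 14 moved. With peaks below their list's median fold enrichment left out, 2 of 54 genes had a WT peak and 0 a DNMT1-KO peak, and the Pol II share was 2.33%. Leaving out genes near a protein-coding start left 7 genes with a WT peak and a Pol III share of 0, and leaving out those near any transcript start of a protein-coding gene left 6. Without the RNVU1- genes the Pol II share was 43.8%. In the 300-base promoter, a PQS was found at 18.2% of genes with and 46.5% of genes without a WT peak, and the median GC content was 43.0% and 58.3%. With runs of at least 2 G, chosen after seeing the data, all genes with and without a peak held a motif (100% each), and 90.9% of the WT peaks at these genes did. Windows of 500 bp or 3 kb, summits in place of intervals, and near-identical genes counted once moved no count beyond these limits. Depth limits the counts, since the peaks at these genes hold 16 to 37 fragments and no detection limit was measured. No paired analysis was possible because each genotype has 1 peak list and no result comes from a test. Leaving out a replicate was not possible for the same reason.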
